A study of Danio rerio with 3 samples.

Results

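Mural cells are the pericytes and smooth muscle cells that wrap blood vessels. Pericytes are recruited by platelet-derived growth factor (PDGF) ligands of the endothelium through the receptor Pdgfrb, and smooth muscle contracts when endothelin binds receptors such as Ednra, which signal through G proteins. Rgs proteins switch such G proteins off, and acta2 and tagln encode an actin and an actin-binding protein of the contractile apparatus. The study's title calls the sorted cells mural, which raises the question of how far they carry the transcripts of pericytes and smooth muscle.

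The genes described are those of the mural receptors, ligands and contractile markers: TAGLN under the gene ID ENSDARG00000033466, and every ID whose symbol, ignoring case and a final a or b, is rgs5, acta2, ednra, pdgfra, pdgfrb, pdgfa or pdgfb. This found 11 of the 32105 gene IDs in the count table. They were followed in 1 group of 3 libraries of cells labelled muLEC, from adult wildtype zebrafish. Each library pooled the brains of 6 fish, dissociated with Liberase and sorted for a lyve1 DsRed reporter, and its RNA was amplified. The labels give no comparison population, so the cells cannot be set against true mural cells or the rest of the brain. Everything the reporter marks was collected together, so fewer cells of a type and less RNA per cell cannot be told apart in these bulk values. A library's level is given as reads or as CPM, reads per 1000000 reads of the library, after TMM scaling, which corrects for differences in library composition. The libraries held 34307745 to 36044297 reads, and the floor of 3 reads came to 0.0729 to 0.107 CPM. To describe the cells, 5 of 6 lymphatic endothelial markers (MRC1, stab1, stab2, lyve1b and FLT4) stood above the median tested gene, beside 23.3% of all tested genes. PROX1, with 614, 1213 and 1 reads, did not pass. The sort used a lyve1 reporter, so the level of lyve1b cannot check the label. The list was also chosen with earlier results of these data known, so as a whole it does not check the label either. Of 3 tested myeloid genes, cd74a and cd74b also stood above the median gene, cd74b not without replicate 3 and not by limma-trend. The third, SPI1, with 7, 1500 and 14 reads, did not pass. The myeloid genes csf1ra, with 0, 3 and 102 reads, and ptprc, with 8, 1 and 237, had too few reads to be tested. Of 10 pan-endothelial symbols, 8 were matched to a gene and 6 of these were tested. EGFL7, clec14a and FLI1 stood above the median gene, FLI1 not without replicate 1 or without replicate 3. TIE1, with 656, 11 and 2114 reads, tek, with 93, 249 and 32, and ESAM, with 1011, 1159 and 806, did not pass. Without replicate 2, tek was called below the median gene. With a library left out fewer low genes were tested and the median gene had more reads. A call lost or gained in that way, here or below, need not rest on that library. The endothelial cadherin gene cdh5 and the receptor gene kdrl, also among the 8, were at or under the floor, with 0, 3 and 0 reads and 3, 1 and 1 reads.

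Of the 11 genes, 6 had at least 10 reads in 2 or more libraries and were tested. By that filter 22.1% of all gene IDs passed, and 25.8% of those with a symbol. By edgeR's quasi-likelihood test of each gene against the median tested gene (Benjamini-Hochberg adjusted p under 0.05), EDNRA, RGS5, TAGLN, rgs5b and PDGFRA stood above it, PDGFA did not pass, and 0 stood below (0 at an unadjusted p under 0.05, and 0 by DESeq2 or limma-trend). Of all 7111 tested genes, 23.3% stood above and 1.2% below. The 6 tested genes had a median log2 ratio of 2.99 to the median gene, against 0.22 over all tested genes. The members were chosen with earlier results of these data known, and of 2 IDs named TAGLN only the one with more reads is a member. These counts and medians therefore describe the members and do not test whether mural genes as a class are high. The other 5 genes, acta2, PDGFRB, ednrab, pdgfba and pdgfbb, did not reach the filter. Reads were not divided by transcript length, which was not used here, so CPM levels of different genes are not comparable, and a ratio to the median gene or a percentile includes the effect of length.

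**Figure D1:**
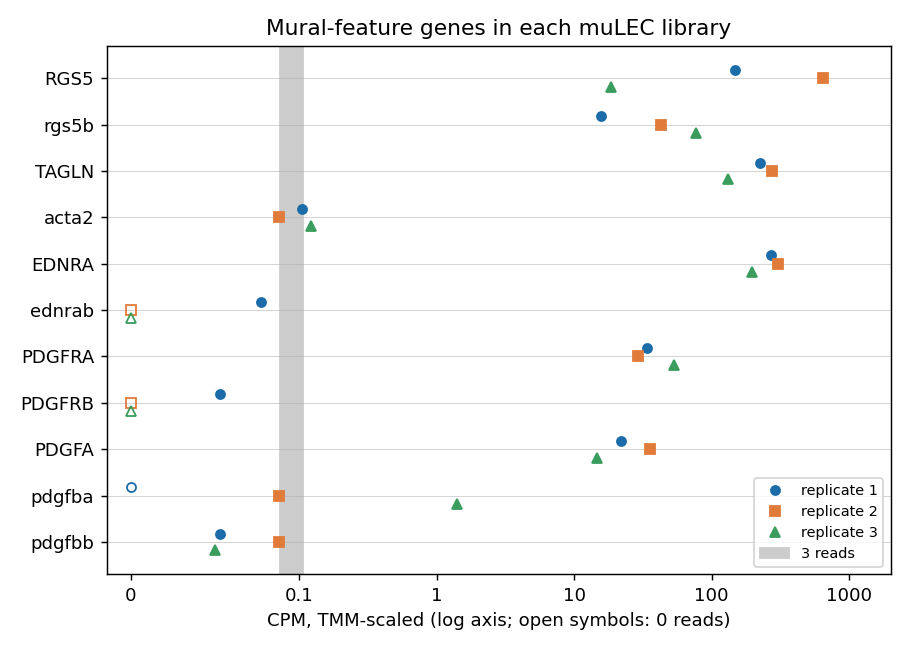
TMM-scaled CPM of the 11 genes (vertical axis) in each of the 3 muLEC libraries, on a log axis with open symbols at 0 reads and a grey band at 3 reads. EDNRA and TAGLN lie above 100 CPM in every library, RGS5 runs from 18.6 to 651 CPM, and PDGFRB, ednrab and pdgfbb lie at or under the band.

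In TMM-scaled CPM, EDNRA had the smallest spread between libraries of the 6 tested genes. EDNRA (ENSDARG00000011876) encodes an endothelin receptor, known in mammals for the contraction of vascular smooth muscle and in zebrafish for patterning of the lower jaw. It had 10270, 8536 and 8126 reads in replicates 1, 2 and 3. These came to 272, 305 and 198 CPM, or 258 CPM ± 55.0 (SD, n = 3). On this scale all 3 libraries lay within 1.54 times of each other, with replicate 2 highest and replicate 3 lowest. That order depended on the scaling. Replicate 1 had the most reads, and the YuGene scores that the authors deposited were 0.909, 0.885 and 0.911, lowest in replicate 2. Its log2 ratio to the median gene was 4.40 ± 0.31 (SE, adjusted p = 6.64e-10, edgeR), and in each library it exceeded at least 95.1% of tested genes.

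The second copy of this receptor was close to absent. ednrab (ENSDARG00000062262) had 2, 0 and 0 reads, under the floor of 3 reads in every library. The 2 copies together had 8126 to 10272 reads, of which EDNRA took 99.98% in replicate 1 (exact binomial 95% interval 99.93 to 99.998, counting error only) and 100% in the others. At this depth ednrab did not rise above the floor in any library.

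Of 10 other endothelin pathway genes in the table, 2 were tested (20%, near the 25.8% over gene IDs with a symbol). Among those tested edgeR called 0 in either direction, as did DESeq2 and limma-trend (each also with 0 at an unadjusted p under 0.05), with a median log2 ratio of -0.68. Over all tested genes edgeR placed 23.3% above and 1.2% below. The ligand gene edn1 had 610, 2 and 63 reads, so its level of 5.92 CPM ± 8.89 rested on replicate 1 (ratio to the median gene of -1.09 ± 1.72 in log2, SE; adjusted p = 0.860, edgeR). ECE1, whose enzyme cuts the endothelin precursor, had 239, 288 and 578 reads and likewise did not pass (log2 ratio of -0.27). The ligand genes edn2 and edn3b had 0 reads in every library. The 2 copies of the other receptor gene, EDNRB, had 1, 0 and 0 reads and 0 reads throughout. GNAQ, a G protein subunit that acts below endothelin receptors, had 2, 0 and 0 reads, and its relatives gna11a and gna11b had 0, 0 and 1 and 1, 0 and 58 reads.

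Of the PDGF receptors, PDGFRA was present and PDGFRB was not detected above the floor. PDGFRB (ENSDARG00000100897), the receptor that defines pericytes, had 1, 0 and 0 reads, under the floor in every library. PDGFRA (ENSDARG00000070494), the receptor of fibroblasts and of oligodendrocyte progenitors in mammals, had 1290, 818 and 2185 reads. Its levels of 34.2, 29.2 and 53.1 CPM averaged 38.8 CPM ± 12.6 (SD, n = 3), with replicate 3 highest. Its log2 ratio was 1.65 ± 0.65 (SE, adjusted p = 0.0405, edgeR). That call is marginal: without replicate 1 the ratio was 0.96 (adjusted p = 0.395), and without replicate 3 it was 0.22 (adjusted p = 0.929). The median gene itself had more reads in those fits. Without replicate 1 it had 745 and 782 in replicates 2 and 3, and without replicate 3 it had 946.5 and 839.5 in replicates 1 and 2. With all 3 libraries it had 475, 328 and 523, so the lost calls need not rest on the library left out. PDGFRA also did not pass against 1 reference level for all libraries, with TMM sizes (adjusted p = 0.0824) or DESeq2 size factors (adjusted p = 0.143), or among genes with 10 reads in all 3 libraries (adjusted p = 0.537).

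Markers of other PDGFRA-bearing cells were set beside it. Of 10 fibroblast genes other than PDGFRA, 7 were tested (70%, beside 25.8% over gene IDs with a symbol). By edgeR 0 passed in either direction (1 lower at an unadjusted p under 0.05), beside 23.3% above and 1.2% below over all tested genes. DESeq2 called 0, and limma-trend called the collagen gene col1a1a below the median gene, with 2, 32 and 25 reads. Without replicate 1 edgeR also called col1a1a below. With YuGene scores 1 fibroblast gene was called below. Summed over the 10 fibroblast genes the level was 19.0, 118 and 54.6 CPM in replicates 1, 2 and 3. Which cells the PDGFRA reads came from was not tested. The matrix gene DCN was at 21.5 CPM ± 15.3, with 204, 1005 and 952 reads, and LUM had 1, 0 and 0 reads. Of 5 oligodendrocyte progenitor genes other than PDGFRA, 0 were tested, beside 25.8% over gene IDs with a symbol. In every library 4 of the 5 (80%) had at most 3 reads, beside 53.2% over gene IDs with a symbol. The genes olig1, CSPG4 and GPR17 had 0 reads in every library, OLIG2 had 1, 0 and 0, and SOX10 had 35, 1 and 1. Their summed level was 0.953 CPM in replicate 1 and under 0.1 CPM in the others.

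Of the PDGF-A and PDGF-B genes, PDGFA alone was above the floor in all libraries. PDGFA (ENSDARG00000098578), whose product binds Pdgfra, had 836, 994 and 608 reads. Its levels were 22.1, 35.5 and 14.8 CPM, or 24.1 CPM ± 10.5 (SD, n = 3). It did not pass against the median gene, with 0.99 ± 0.88 as its log2 ratio (SE, adjusted p = 0.533, edgeR), and it lay at the 54.2 to 69.3 percentile of tested genes across the libraries. The names table gives PDGFA to 3 gene IDs, of which 1 is in the count table, and RefSeq (assembly GRCz12tu) lists the copies pdgfaa and pdgfab, so which copy was counted is not settled.

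Both genes of PDGF-B, the ligand through which endothelium draws in pericytes, were at or under the floor in replicates 1 and 2. pdgfba (ENSDARG00000086778) had 0, 2 and 58 reads, which left replicate 3 alone above the floor, at 1.41 CPM. pdgfbb (ENSDARG00000038139) had 1, 2 and 1 reads. Thrombocytes are another known source of PDGF, and their markers itga2b, mpl and GP1BB had 0 reads in all 3 libraries.

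In the wider PDGF pathway the levels ran to both sides of the median gene. Of 21 genes, 15 were tested (71.4%, beside 25.8% over gene IDs with a symbol). Among the 15, edgeR placed 2 above, beside the 23.3% over all tested genes, and 0 below (1 lower at an unadjusted p under 0.05). Their log2 ratios ran from -4.79 for a FURIN copy, with 16, 0 and 39 reads, and -4.36 for nrp1b, with 54, 0 and 17, to 2.38 for PDGFRL, with a median of -0.02. DESeq2 called the same 2 genes above and 0 below. limma-trend added PTPN11 above and called a FURIN copy and nrp1b below. PDGFRL, a receptor-like gene, passed at 63.4 CPM ± 40.0 (log2 ratio of 2.38 ± 0.55, SE, adjusted p = 0.000625, edgeR), with 733, 2737 and 2999 reads. GAB1, a docking protein below growth factor receptors, passed at 40.8 CPM ± 11.4, with 1932, 1196 and 1176 reads. With 1 library left out, GAB1 did not pass in any of the 3 fits. PDGFRL passed without replicate 1 and without replicate 2, and without replicate 3 there were 0 calls (0 at an unadjusted p under 0.05, edgeR). Without replicate 2, PLCG1 also passed above and a FURIN copy and nrp1b below. PLCG1, a phospholipase below Pdgf receptors, had 4113, 52 and 722 reads, highest in replicate 1, and did not pass with all 3 libraries. Of the other ligands, PDGFC had 0, 1 and 0 reads and PDGFD had 592, 8 and 621 reads and did not pass.

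**Figure D2:**
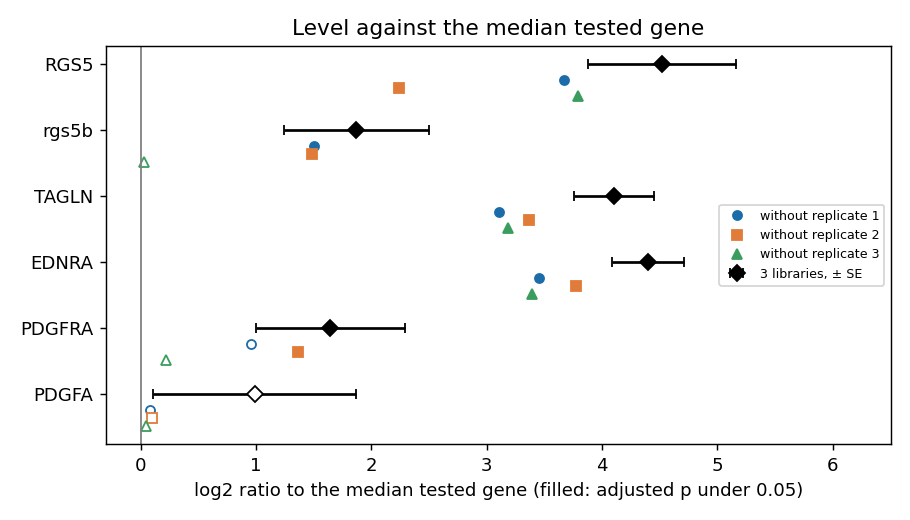
Log2 ratio to the median tested gene for the 6 tested genes: black diamonds with SE for 3 libraries, coloured symbols for fits without 1 replicate, filled where the adjusted p was under 0.05. EDNRA, TAGLN and RGS5 stay filled throughout, rgs5b is open at 0.03 without replicate 3, and PDGFRA is open without replicate 1 or 3. The median gene had more reads in the fits without 1 replicate.

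The RGS5 genes varied most between libraries of the 6 tested genes, and in different orders. RGS5 (ENSDARG00000002644), a regulator of G protein signalling used as a pericyte marker, had 5590, 18235 and 765 reads. Its levels of 148, 651 and 18.6 CPM spanned 35.0-fold, highest in replicate 2 and lowest in replicate 3. The mean of 273 CPM ± 334 (SD, n = 3) fell to 83.3 CPM without replicate 2. The log2 ratio of 4.52 ± 0.64 (SE, adjusted p = 3.63e-07, edgeR) was 2.24 without replicate 2 and still passed.

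The copy rgs5b (ENSDARG00000017860) followed another order. It had 591, 1195 and 3185 reads, or 15.6, 42.7 and 77.4 CPM, highest in replicate 3. Its mean was 45.3 CPM ± 31.0 (SD, n = 3) and its log2 ratio 1.87 ± 0.63 (SE, adjusted p = 0.0150, edgeR). Without replicate 3 the ratio was 0.03 and did not pass (adjusted p = 0.990), and the mean was 29.2 CPM. The median gene then had 946.5 and 839.5 reads in replicates 1 and 2, against 475 and 328 with all 3 libraries. Part of the fall in the ratio therefore came from the median gene. The call was also lost with DESeq2 size factors and 1 reference level (adjusted p = 0.0570) and among genes with 10 reads in all 3 libraries (adjusted p = 0.401).

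The balance of the copies changed with the library. RGS5 held 90.4% of the reads of the pair in replicate 1 (exact binomial 95% interval 89.7 to 91.2) and 93.8% in replicate 2 (93.5 to 94.2), but 19.4% in replicate 3 (18.1 to 20.6). These intervals cover counting error only, and amplified reads are not independent molecules. Summed over the pair the level was 164, 694 and 96.0 CPM, which spread less than RGS5 alone and remained highest in replicate 2.

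Replicates 2 and 3 also differed in other markers. Summed over 5 myeloid genes (csf1ra, ptprc, SPI1, cd74a and cd74b) the level was 95.4, 311 and 944 CPM, in the same order of libraries as rgs5b. That order was set by cd74a and cd74b, invariant chain genes of antigen presentation, which had 3530, 6890 and 22496 reads and 58, 306 and 15963 reads. The other 3 summed to 0.397, 53.7 and 8.58 CPM, highest in replicate 2. Among them SPI1, a myeloid transcription factor gene, had 7, 1500 and 14 reads. The macrophage receptor gene csf1ra had 0, 3 and 102, and the leukocyte phosphatase gene ptprc had 8, 1 and 237. Pericyte genes other than PDGFRB summed to 46.3, 63.7 and 111 CPM, also in the order of rgs5b, an order that 3 libraries share easily. The 2 VTN copies made up 38.7, 63.3 and 105.6 CPM of this. The other 11 genes summed to 7.62, 0.429 and 5.45 CPM, lowest in replicate 2. Smooth muscle genes other than TAGLN and acta2 summed to 146, 205 and 78.3 CPM, highest in replicate 2. This sum held genes that were high in 1 library alone. They were smtnb and a MYL9 copy (ENSDARG00000038123), at 35.7 and 23.4 CPM in replicate 2, and a MYLK copy (ENSDARG00000034801), at 20.8 CPM in replicate 1. The part of these cells in the levels of the RGS5 genes was not tested. CSPG4 and KCNJ8, which mark pericytes, had 0 reads in every library. The second VTN copy (ENSDARG00000055388), from the same list, had 0, 595 and 1 reads, above the floor in replicate 2 alone.

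Of 21 other genes of the RGS family, 2 were tested (9.52%, beside 25.8% over gene IDs with a symbol). Of these rgs3a stood above the median gene, as did 23.3% of all tested genes. Among the 21, 15 (71.4%) had at most 3 reads in every library. Over all gene IDs with a symbol 53.2% had at most 3 reads in every library. rgs3a had 12281, 9638 and 6781 reads, at 278 CPM ± 98.5 (SD, n = 3), and its log2 ratio was 4.51 ± 0.33 (SE, adjusted p = 7.95e-10, edgeR). rgs18, known from platelets in mammals, had 117, 327 and 977 reads and did not pass. RGS4, a relative of RGS5 also found in mouse pericytes, had 1, 0 and 0 reads.

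**Figure D3:**
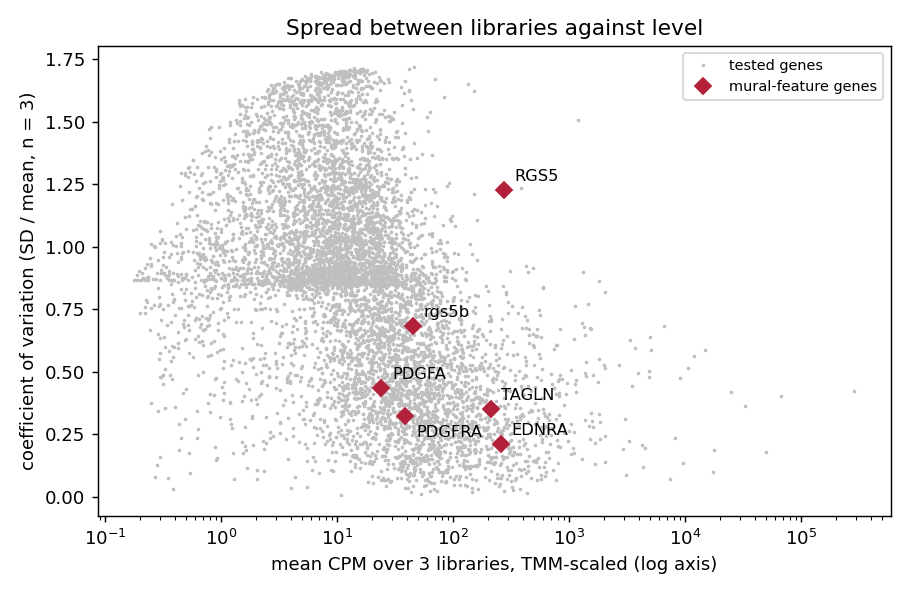
Coefficient of variation over 3 libraries against mean TMM-scaled CPM (log axis) for the 7111 tested genes (grey) and the 6 tested mural-feature genes (red). RGS5, at 1.23, stands above the bulk of genes of its level, whereas EDNRA lies at 0.213 and TAGLN at 0.350.

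Spread depended on level over all tested genes, so each gene was set beside the 200 tested genes nearest to it in mean CPM. The coefficient of variation of RGS5 was 1.23, against a median of 0.303 for its neighbours, and exceeded 99.5% of them. rgs5b, at 0.684 against 0.539, was also above the median, at the 60.5 percentile. TAGLN lay at the median, with 0.350 for both. EDNRA, at 0.213 against 0.311, PDGFRA, at 0.325 against 0.590, and PDGFA, at 0.435 against 0.846, lay under theirs. Set against lyve1b, a zebrafish lyve1 copy (the sort used a lyve1 reporter), which needs no library scaling, EDNRA had 41.5, 58.5 and 30.9 reads per 100 reads of lyve1b. RGS5 had 22.6, 125 and 2.91 on this measure, so its high and low libraries were the same ones. PDGFRA had 5.21, 5.61 and 8.32, and its span of 1.60-fold was smaller than the 1.89-fold of EDNRA.

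Of the rows named for contractile markers, the one named TAGLN, whose copy is not settled, was high and acta2 was near the floor. TAGLN (ENSDARG00000033466), a transgelin that binds actin filaments, had 8487, 7724 and 5372 reads. Its levels of 225, 276 and 131 CPM averaged 210.4 CPM ± 73.7 (SD, n = 3), lowest in replicate 3. The log2 ratio was 4.11 ± 0.35 (SE, adjusted p = 5.39e-09, edgeR). acta2 (ENSDARG00000045180), the smooth muscle actin, had 4, 2 and 5 reads, or 0.106, 0.0714 and 0.122 CPM. Actin genes are near-identical in their coding sequence, and actb1 and actb2 had 13431 to 26141 reads in each library; whether any acta2 reads belong to them was not tested.

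The name of the TAGLN row is itself uncertain. The names table gives TAGLN to 2 gene IDs and tagln2 to 0, whereas RefSeq lists tagln, the smooth muscle gene, and tagln2, a more widely expressed paralog, as separate zebrafish genes. The second ID, ENSDARG00000045408, had 0, 0 and 37 reads. Whether the high row is tagln or tagln2 cannot be read from these tables, so the level is that of a transgelin gene whose copy is not settled.

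Detection of the other mural markers was near that of any named gene. Of 13 pericyte genes other than the members, 3 (23.1%) were tested, beside 25.8% over gene IDs with a symbol. Of these 1 stood above the median gene and 0 below by edgeR and by DESeq2 (0 lower at an unadjusted p under 0.05 by each). Over all tested genes edgeR placed 23.3% above and 1.2% below. In every library 8 of the 13 (61.5%) had at most 3 reads, beside 53.2% over gene IDs with a symbol. The gene above was VTN (ENSDARG00000053831), a matrix glycoprotein, at 62.1 CPM ± 37.7 with 1460, 1176 and 4341 reads (log2 ratio of 2.32 ± 0.52, SE, adjusted p = 0.000532, edgeR), which did not pass without replicate 3. NOTCH3, the Notch receptor of mural cells, had 1, 2 and 0 reads, and ABCC9, a subunit of the pericyte potassium channel, had 1, 0 and 0. The transcription factor genes foxc1b and FOXC1, active in brain pericytes and meninges, had 232, 8 and 134 reads and 53, 1 and 85 reads. Neither passed by edgeR with all 3 libraries. FOXC1 was called below the median gene by limma-trend and by edgeR without replicate 2. With YuGene scores 1 pericyte gene was also called below.

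Of 23 smooth muscle genes other than TAGLN and acta2, 6 (26.1%) were tested, also near the share over named genes. Of these 1 stood above and 0 below by edgeR and by DESeq2 (0 lower at an unadjusted p under 0.05 by each). Over all tested genes edgeR placed 23.3% above and 1.2% below. limma-trend called tpm1 and TPM2 below. In every library 14 of the 23 (60.9%) had at most 3 reads, beside 53.2% over gene IDs with a symbol. CSRP1 (ENSDARG00000006603), a LIM domain protein, passed at 57.7 CPM ± 24.1 with 3000, 1733 and 1308 reads (log2 ratio of 2.23 ± 0.52, SE, adjusted p = 0.000848, edgeR), though its call was lost without replicate 1 and without replicate 3. The myosin light chain gene MYL9 (ENSDARG00000008030) did not pass, at 22.0 CPM ± 14.0, with 818, 1012 and 334 reads. Of the genes that missed the filter, 3 were high in a single library. A second MYL9 copy (ENSDARG00000038123) had 0, 654 and 1 reads, and smtnb, a smoothelin gene, had 2, 998 and 6, both highest in replicate 2. A copy of MYLK, the myosin light chain kinase gene (ENSDARG00000034801), had 785, 8 and 6, highest in replicate 1. Both copies of MYH11, the smooth muscle myosin heavy chain, had at most 1 read in any library, as did both copies of CNN1, a smooth muscle calponin. Skeletal muscle markers myhz1.1, myhz2 and ckma also had at most 1 read.

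**Figure D4:**
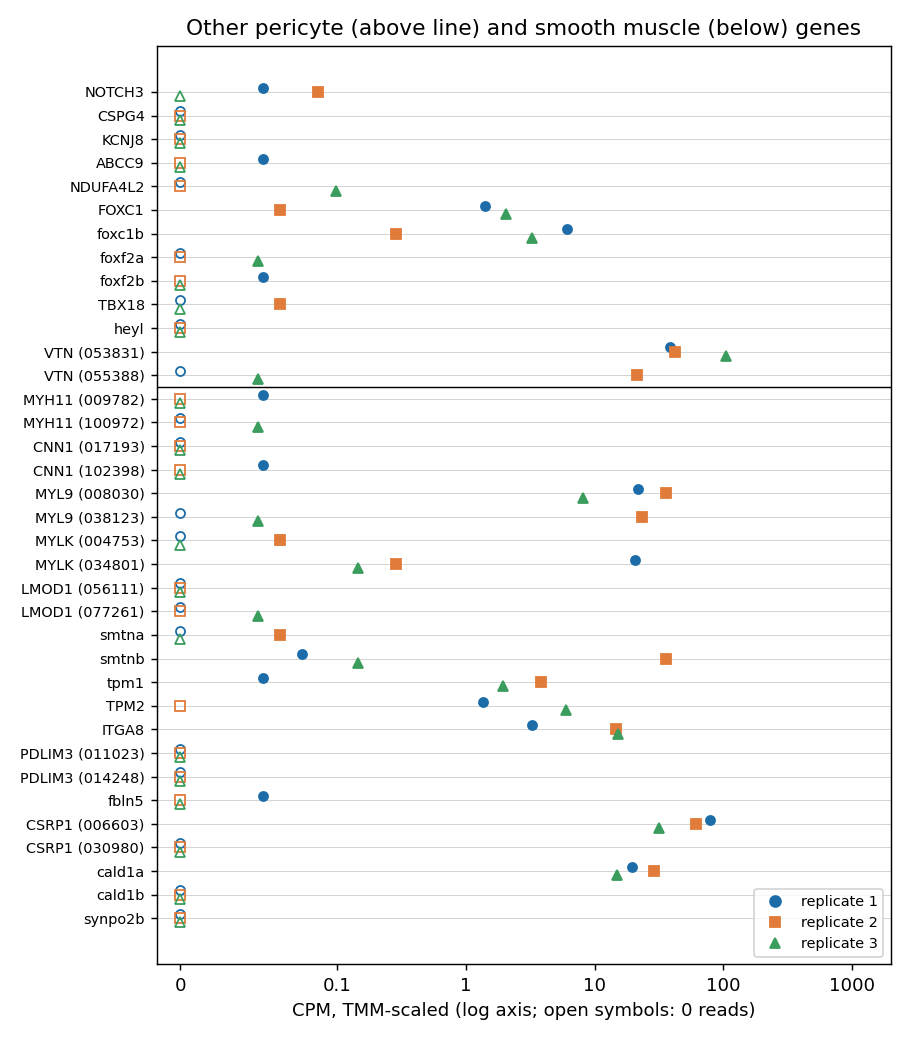
TMM-scaled CPM of the other 13 pericyte genes (above the line) and 23 smooth muscle genes (below it) in each muLEC library, on a log axis with open symbols at 0 reads; numbers in brackets are the last digits of the gene ID where copies share a symbol. The called VTN and CSRP1 copies have means of 62.1 and 57.7 CPM, and 8 pericyte and 14 smooth muscle genes have at most 3 reads in every library.

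The genes nearest to each tested member were found by the root mean square difference in log2(CPM + 1) over the 3 libraries, a description that rests on 3 points sharing library and depth. Nearest to EDNRA were si:ch211-145b13.6, RPS28 and CHMP1B, at differences of 0.08, 0.08 and 0.10. Nearest to TAGLN were zgc:162730, WASH6P and UQCRB, at 0.08, 0.10 and 0.11. For rgs5b they were IQGAP1, pfn1 and PSME1, at 0.06, 0.13 and 0.16. For PDGFRA they were SFXN2, COX6A1 and si:ch1073-291c23.2, at 0.08 to 0.11, and for PDGFA DYNLL2, ATP2A2 and SNAPC3, at 0.05 to 0.10. The genes closest to RGS5 lay farther off: FRYL, hsp70.3 and tcf7l1b, at 0.83, 0.94 and 1.05.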

How the data were processed

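The authors deposited counts, whole-number reads per Ensembl gene ID in 3 libraries, with no normalization seen in them, and a YuGene score per gene and library. bcl2fastq, R 3.2.2 and the build GRCz10 appear in the submitters' processing notes. For the aligner, counting program and strand setting, nothing is given in the sources used here. Columns were matched to samples by replicate number. Nothing in the labels says more of the replicates than that each is a separate pool of brains. Symbols came from a names table, for 26269 IDs. Transcript lengths, sequences and coordinates of this build were not used here, so the planned order of genes per coding length was not computed.

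The test ran in R 4.3.3 with edgeR 4.0.16 on every gene that reached 10 reads in 2 or more libraries. It was a quasi-likelihood test of whether the intercept is 0, the offset being the logarithm of the median count among those genes in the same library. Its steps were coded from what glmQLFit returns and tested on simulated data. p-values were adjusted over all 7111 genes. Alternatives used DESeq2 1.42.0 and limma 3.58.1. CPM used TMM factors of 1.05, 0.796 and 1.20. List symbols were matched ignoring case, or by the stem without a final a or b where it had no more IDs than copies listed. Unmatched symbols, such as desma, tagln2, pecam1, cldn5b and mpeg1.1, are not in the gene counts given. Matched were 14 of 17 pericyte, 25 of 29 smooth muscle, 8 of 10 pan-endothelial and 5 of 6 myeloid symbols. So were 14 of 18 for SRF, 10 of 13 paralogs, 21 of 23 RGS and 11 of 14 endothelin symbols. For fibroblasts 11 of 12 were matched, for oligodendrocyte progenitors 6 of 7, thrombocytes 3 of 4 and skeletal muscle 3 of 6. From each list the genes named were the called ones, the uncalled one with the highest mean CPM (not per length) and a set of defining markers. Other genes, such as GNAQ, RGS4, SRF, OLIG2, smtnb, MYLK, ptprc and cdh5, were named after their values were seen. The members and lists were chosen with earlier results of these data known.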

Additional observations from a re-analysis of the deposited data

How the results depend on the processing

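No paired analysis was possible because there is 1 group. EDNRA, TAGLN and RGS5 stood above the median gene under all 10 alternatives run. rgs5b lost its call in 3 of them and PDGFRA in 5. The number of members above was 5, against 3 with DESeq2 size factors and 1 reference level and 3 with at least 10 reads in all 3 libraries; it was 3 to 5 when each replicate was left out. With no filter it was 6, PDGFA being called above as well (8.77, adjusted p = 1.8e-104, edgeR). With the filter on all 3 libraries PDGFA turned to -0.29 and was not called. Over all genes, 1658 stood above and 85 below. Below the median, DESeq2 called 0 (75 at an unadjusted p under 0.05), limma-trend 1042, YuGene scores 1089 and that filter 220, with 1042 above. Leaving out replicates gave 937 to 1581 above and 217 to 478 below. With no filter 8242 of 18455 genes stood above and 0 below (0 at an unadjusted p under 0.05), the median gene then having 3, 1 and 17 reads in replicates 1, 2 and 3, against 475, 328 and 523. Dividing by coding length was not run. Fewer low genes were tested with a library left out, and the median gene then had 671.5 to 946.5 reads, so a call lost without a library need not rest on that library. Counts cover amplified reads.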

Other observations

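Among paralogs of the contractile markers, the cytoplasmic actin genes stood above the median gene, and the 1 muscle actin gene tested did not pass. Of 10 transgelin, calponin and actin paralogs, 6 were tested (60%, beside 25.8% over gene IDs with a symbol). Of these edgeR placed 4, actb1, actb2, CNN2 and a CNN3 copy, higher than the median gene, beside 23.3% over all tested genes. It placed 0 lower (0 lower at an unadjusted p under 0.05, and 0 by DESeq2 or limma-trend). The cytoplasmic actin genes actb1 and actb2 were even, at 437 CPM ± 62.0 and 578 CPM ± 49.8 (SD, n = 3). CNN2, a calponin of non-muscle cells, had 7380, 9112 and 4294 reads, at 208 CPM ± 111, and CNN3 (ENSDARG00000029856) had 2428, 798 and 1587, a call lost without replicate 1 and without replicate 3. The second CNN3 copy (ENSDARG00000099510) had 140, 1035 and 1708 reads and did not pass, so the copies were lowest in different libraries. Of the muscle actins, an ACTA1 copy (ENSDARG00000036371) had 75, 77 and 133 reads and did not pass (log2 ratio of -2.21). Without replicate 3 edgeR called this copy below the median gene. Among the 6 tested paralogs, 1 was also called below with 10 reads in all 3 libraries and with YuGene scores. The second ACTA1 copy, actc1a and actc1b had 3 to 18 reads in each library, and tagln3a had 0 in all.

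Serum response factor (SRF) drives acta2 and tagln in smooth muscle. Both SRF copies had 0 reads in every library, where the floor of 3 reads was at 0.0794, 0.107 and 0.0729 CPM in replicates 1, 2 and 3. That floor reflects counting alone. Amplified reads are not independent molecules, so it sets no upper limit on the level in the cells. Of 14 SRF factors and targets, 1 was tested (7.14%, beside 25.8% over gene IDs with a symbol), the actin crosslinker flna. It stood above the median gene, as did 23.3% of all tested genes, with 22950, 36261 and 23949 reads, at 828 CPM ± 405. Among the others, the focal adhesion gene ZYX had 151, 0 and 0 reads, and the VCL copies had 0, 0 and 31 and 7, 0 and 114. The SRF cofactor genes MRTFA, mrtfab and MRTFB had reads above the floor mainly in replicate 3, with 87, 125 and 306 there.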
